A study of Bos taurus with 5 samples.

Results

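Loci that share a stretch of the genome with other loci were described in peripheral blood leukocytes, the white cells of the blood, of 5 cattle populations. A locus here is a gene_id of the authors' transcript assembly, and a span is the stretch of chromosome that the tables print for it. The loci were chosen by rule: exactly 1 assembled transcript, an Ensembl transcript ID (the reference catalogue's name for a transcript), a span identical to that of at least 1 other locus, and a place outside unplaced sequence and the mitochondrial chromosome. Of 31898 loci in all, 3240 met these terms, and 863 of them averaged 1 FPKM or more in the 5 libraries. FPKM divide the sequenced fragments of a transcript by its length and by the size of the library. The 863 loci, called shared-span loci here, lay in 705 spans and belonged to the 13871 loci that reached this level.

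Each population had 1 library. The crossbred libraries were 75C, with 75 percent Holstein and 25 percent native Iranian ancestry, 50CSH, bred from Holstein sires on native dams, and 50CSN, bred from native sires on Holstein dams, the last 2 with 50 percent of each ancestry. The purebred libraries were labelled H and N, letters that the labels do not spell out. Holstein is a dairy breed. The labels give no age or treatment, and leave unsaid if 1 animal or a pool stands behind each library. Differences between single populations therefore have no replicate check, and p-values of the 3 crossbred against the 2 purebred libraries measure only the spread among these libraries.

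Mammalian genes often overlap. A short gene can lie inside the intron of a longer one, genes on opposite strands can run across each other, and a transcript can continue from one gene into its neighbour. Where transcripts overlap, an assembler gathers their reads and divides them between the transcripts by a model, so the value of a small transcript depends on how its neighbours are fitted. No strand-marking step is mentioned in the library protocol, so it is not known how far reads from overlapping genes on opposite strands can be told apart. The tables give Ensembl IDs without gene names, so the roles of single loci and markers of leukocyte types are not described.

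The summed FPKM of all loci was 843353 in 75C, 789089 in 50CSH, 852903 in 50CSN, 733855 in H and 735252 in N. The shared-span loci held 9.38 percent of it in 75C, 10.0 percent in 50CSH, 10.2 percent in 50CSN, 8.99 percent in H and 9.52 percent in N. The tables carry no read totals, so the depth behind each value is unknown.

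Many of the spans held few loci. Of the 863, 437 lay in a span of 2 loci, 190 in a span of 3 and 236 in a span of 4 or more. The median span was 49655 nt long. The same spans held 1444 other loci, of which 932 had several transcripts, 97 had no Ensembl ID and 874 reached a mean of 1 FPKM. In 595 spans there was only 1 shared-span locus, and in 110 spans there were 2 or more. All other loci of the span were at 0 in every library for 50 of the 863. The median mean level was 7.70 FPKM, against 21.1 FPKM for the 1061 annotated single-transcript loci alone in their span. At the threshold of 1 FPKM, the lowest locus kept was ENSBTAT00000056456, with a mean of 1.001 FPKM, and the highest left out was ENSBTAT00000005626, with a mean of 0.986 FPKM. Without their highest library, 78 of the 863 would have had a mean below 1 FPKM, so these passed the floor only with it. Of the 78, 44 were listed at 0 in 1 or more libraries. A locus close to the floor can be among the 78 with little difference, such as ENSBTAT00000019639 at 0.858 to 1.09 FPKM.

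The shared-span loci fell into 3 kinds by their Ensembl ID, a division made after their values were seen. The ID of 354 loci stood on another locus of the same span as well, so that 1 reference transcript was matched to several assembled loci. Of the rest, whose ID stood on no other locus of the span, 435 carried an ID number below 59000 and 74 a number from 59000 upward. The tables do not say what kind of RNA an ID stands for. The median mean level was 2.76 FPKM for the ID-sharing loci, 18.4 FPKM for the own-ID loci numbered below 59000 and 12.9 FPKM for those numbered from 59000. The median difference between the highest and the lowest library, on the log2(FPKM + 1) scale, was 0.66 for the ID-sharing loci, 0.47 for the own-ID loci numbered below 59000 and 5.17 for those numbered from 59000. The median difference was thus widest in the last of these kinds, and 61 of its 74 loci had a 0 in 1 or more libraries.

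Of the 18 most abundant shared-span loci, averaging 1000 FPKM or more, 14 were higher in each of the 3 crossbreds than in either purebred, none was lower in each, and 9 of the 10 highest were among the 14. Among all loci of that level, 63.9 percent lay above and 3.28 percent below, so a high share was common to abundant loci in general. After quantile normalisation, which gives every library the same distribution of values, 11 of the 18 and 6 of the 10 lay above. In bulk samples such as these, fewer cells of a type and less RNA per cell cannot be told apart.

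The highest of all, ENSBTAT00000005007 on chromosome 18 from 55891981 to 55895505, had 6875 FPKM in 75C, 7536 FPKM in 50CSH and 8077 FPKM in 50CSN, against 4888 FPKM in H and 4771 FPKM in N. The other 4 loci of its span were at 0 in all 5 libraries, so it stood as the only measured locus there. Its log2 difference, crossbred minus purebred on the log2(FPKM + 1) scale, was 0.63 with a standard error of 0.20, and its limma adjusted p (Benjamini-Hochberg over the 13871 loci) was 0.18. The difference therefore did not pass the threshold of 0.05, although the groups did not overlap. After quantile normalisation it was 0.085.

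Further along chromosome 18, from 55901691 to 55904123, ENSBTAT00000018491 had 6054 FPKM in 75C, 7042 FPKM in 50CSH and 7929 FPKM in 50CSN, against 4092 FPKM in H and 3561 FPKM in N. The log2 difference was 0.87 (standard error 0.22, limma adjusted p 0.14), and 0.52 after quantile normalisation. ENSBTAT00000004190 on chromosome 19, from 40681638 to 40686000, had 4944 FPKM in 75C, 6124 FPKM in 50CSH and 6991 FPKM in 50CSN, against 3485 FPKM in H and 3561 FPKM in N. In both loci the crossbred libraries stood in the order 75C, 50CSH, 50CSN from low to high, all above the purebreds, and the other loci of the span summed to at most 61.7 FPKM. The log2 difference of ENSBTAT00000004190 was 0.76, and 0.39 after quantile normalisation.

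The same order of the crossbred libraries held in ENSBTAT00000020323 on chromosome 22, from 57846436 to 57850110, with 2877, 3116 and 3537 FPKM in 75C, 50CSH and 50CSN, against 1968 and 2089 FPKM in H and N. It also held in ENSBTAT00000032643 on chromosome 9, from 43895678 to 43938577, with 1782, 2047 and 2321 FPKM in 75C, 50CSH and 50CSN, against 1346 and 1211 FPKM in H and N. ENSBTAT00000047320 on chromosome 18, from 13525604 to 13527996, varied less among the crossbreds, with 1901, 1910.2 and 2015 FPKM in 75C, 50CSH and 50CSN, against 1249 and 1376 FPKM in H and N. All 3 had a span in which the other loci were at 0 or summed to at most 35.4 FPKM. Their log2 differences of 0.64, 0.67 and 0.57, in the order named, were 0.23, 0.34 and 0.27 after quantile normalisation.

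A smaller gap was seen in ENSBTAT00000012866 on chromosome 22, from 12885044 to 12898466, with 2375, 2308 and 2531 FPKM in 75C, 50CSH and 50CSN, against 1931 and 1779 FPKM in H and N. ENSBTAT00000026183 on chromosome 7, from 39717488 to 39722286, had 1827, 1679.7 and 1896 FPKM in 75C, 50CSH and 50CSN, against 1559.7 and 1462 FPKM in H and N. After quantile normalisation the log2 difference of ENSBTAT00000012866 was 0.032, against 0.37 as deposited, and that of ENSBTAT00000026183 turned to −0.051, against 0.25. Wider gaps were seen in ENSBTAT00000021651 on chromosome 14, from 64350193 to 64353510, and in ENSBTAT00000006781 on chromosome 20, from 35785937 to 35788537. ENSBTAT00000021651 had 1344, 1999.5 and 2417 FPKM in 75C, 50CSH and 50CSN, against 897 and 989 FPKM in H and N (log2 difference 0.99, standard error 0.27, limma adjusted p 0.15). ENSBTAT00000006781 had 1201, 1935 and 2284 FPKM in 75C, 50CSH and 50CSN, against 779 and 863 FPKM in H and N (log2 difference 1.09, standard error 0.29, limma adjusted p 0.14).

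The exception among the 10 highest was a locus on chromosome 23, in a span of 15 loci from 28472237 to 28685278 that is described further on. ENSBTAT00000024888 is the ID of 3 shared-span loci there, and the highest of them had 2912 FPKM in 75C, 4177 FPKM in 50CSH and 4533 FPKM in 50CSN, against 5799 FPKM in H and 3184 FPKM in N. The groups overlapped.

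**Figure D1:**
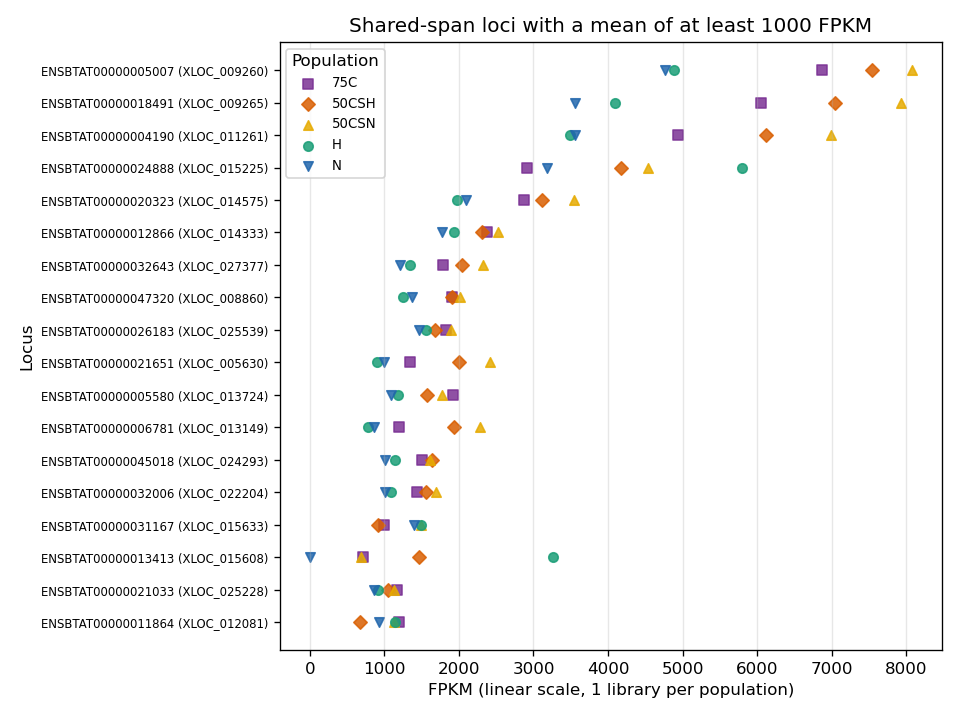
FPKM (linear axis) in each library for the shared-span loci averaging 1000 FPKM or more, 1 row per locus and 1 point per library. In 14 of the 18 rows the 3 crossbred points lie to the right of both purebred points, and in none do all 3 lie to the left. After quantile normalisation, not drawn, 11 of the 18 lay above.

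Over all 863 loci, 165 (19.1 percent) lay above both purebreds in all crossbreds, against 21 percent of all 13871 loci, and 188 (21.8 percent) lay below, against 22.3 percent. These shares are near the background. The balance changed with level, and more loci lay below than above in the lowest bin alone. Of the 469 with a mean from 1 to 10 FPKM, 10.2 percent lay above and 29.4 percent below, against 15.5 percent and 21.8 percent of all loci at that level. Of the 305 from 10 to 100 FPKM, 23.6 percent lay above and 14.8 percent below, against 23.9 percent and 23.5 percent. Of the 71 from 100 to 1000 FPKM, 43.7 percent lay above and 7.04 percent below, against 37.6 percent and 19.7 percent. The median log2 difference of the shared-span loci was −0.16, 0.05, 0.25 and 0.60 in these 4 bins from low to high, against −0.04, 0.00, 0.11 and 0.46 for all loci. Both sets moved up with level, and the shared-span loci covered the wider stretch of the 2. Annotated single-transcript loci alone in their span lay above in 18.3, 35.8, 55.4 and 73.2 percent in the same bins. They lay below in 17.2, 15.8, 13.7 and 0 percent. High shares above and low shares below from 10 FPKM upward were thus not particular to shared spans. Whether these shares differ beyond the spread between libraries was not tested.

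**Figure D2:**
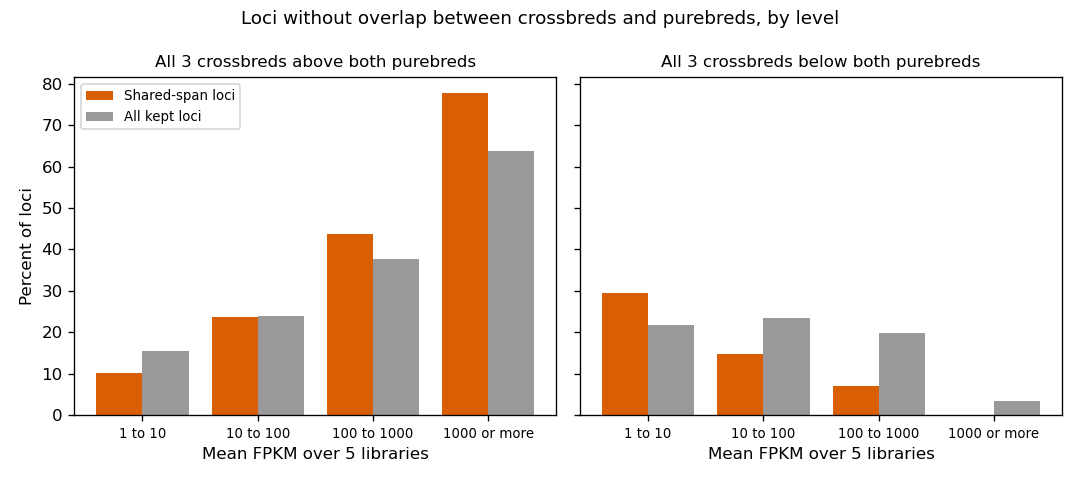
Percent of loci higher, or lower, in each crossbred than in either purebred, by mean FPKM, for the shared-span loci and for all loci kept. At 1 to 10 FPKM 29.4 percent of shared-span loci lay below, against 21.8 percent of all loci, and at 1000 FPKM or more none of the shared-span loci did.

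The limma adjusted p was below 0.05 for 2 of the 863, both lower in the crossbreds, and for 0.0288 percent of all loci. At an unadjusted p below 0.05 there were 105 higher and 87 lower, 22.2 percent of the 863 in all, against 9.86 percent higher and 11.9 percent lower over all loci. Both were listed at 0 in every crossbred library, so no fold is given for them. Both also passed the floor of 1 FPKM only through the purebreds and so had to differ. Without that floor neither passed, at a limma adjusted p of 0.064 each, and the calls stand as a description.

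ENSBTAT00000060235 on chromosome 12, from 14459918 to 14463902, had 44.1 FPKM in H and 65.1 FPKM in N and was listed at 0 in 75C, 50CSH and 50CSN (limma adjusted p 0.0017). The other locus of that span, ENSBTAT00000013402 with 4 transcripts, had 2335, 2541 and 2614 FPKM in 75C, 50CSH and 50CSN, against 1749.9 and 1589.8 FPKM in H and N. The pair thus differed in opposite directions, with the large neighbour higher wherever the small locus was listed at 0.

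ENSBTAT00000049221 on chromosome 19, in a span of 14 loci from 8734352 to 8883076, had 6.71 FPKM in H and 5.56 FPKM in N and was listed at 0 in 75C, 50CSH and 50CSN (limma adjusted p 0.030). That call was lost without any 1 of the 5 libraries, with adjusted p from 0.068 to 0.15. Another shared-span locus of the same stretch, ENSBTAT00000040741, had 304, 450.5 and 420.3 FPKM in 75C, 50CSH and 50CSN, against 145 and 169 FPKM in H and N (log2 difference 1.30, standard error 0.19, limma adjusted p 0.11). It held most of its span in every library. The stretch held 3 more shared-span loci, and all 3 overlapped between the groups. ENSBTAT00000049226 had 32.1 FPKM in 75C against 4.91 to 12.3 FPKM in the other 4 libraries, ENSBTAT00000049228 had 16.0 FPKM in 75C against 6.74 to 9.23 FPKM, and ENSBTAT00000041077 was listed at 0 in 50CSH and 50CSN.

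The loci below both purebreds were mostly of the ID-sharing kind. Of the 354 ID-sharing loci, 39 lay above and 117 below (11.02 and 33.1 percent), against 21 and 22.3 percent of all loci. Of the 435 own-ID loci numbered below 59000, 125 lay above and 66 below (28.7 and 15.2 percent). Restricted to means from 1 to 10 FPKM, 25 of 274 ID-sharing loci lay above and 106 below, or 9.12 and 38.7 percent, against 15.5 and 21.8 percent of all loci at that level, while 22 of 163 own-ID loci numbered below 59000 lay above and 31 below. After quantile normalisation the 274 split into 34 above and 85 below. Most of these small loci stood beside a larger one with the same ID. Over the 354, the other locus or loci with the ID had a median mean of 15.5 FPKM, and in 282 cases they held several transcripts. The shared-span locus had the lower mean in 248 of the 354 and the higher in 106.

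Among the 274 small ID-sharing loci, the median level was 2.27 FPKM in 75C, 1.78 FPKM in 50CSH and 1.68 FPKM in 50CSN, against 2.49 FPKM in H and 2.49 FPKM in N. Their partners, the other loci of the span with the same ID, were not larger in every pair. The partners had medians of 15.5, 15.2 and 14.8 FPKM in 75C, 50CSH and 50CSN, against 15.5 and 15.0 FPKM in H and N. The small locus held a median of 12.2, 10.8 and 10.5 percent of the pair in 75C, 50CSH and 50CSN, against 13.6 and 13.7 percent in H and N. The small loci were thus lowest in the crossbreds while the partners' medians hardly differed. The median log2 difference was −0.22 for the small loci and −0.05 for the partners. Of the partners, 44 lay above and 73 below (16.1 and 26.6 percent), against 21 and 22.3 percent of all loci. The partners thus leaned below as well, less than the small loci did. In 40 pairs both lay below, out of the 106 with the small locus below.

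**Figure D3:**
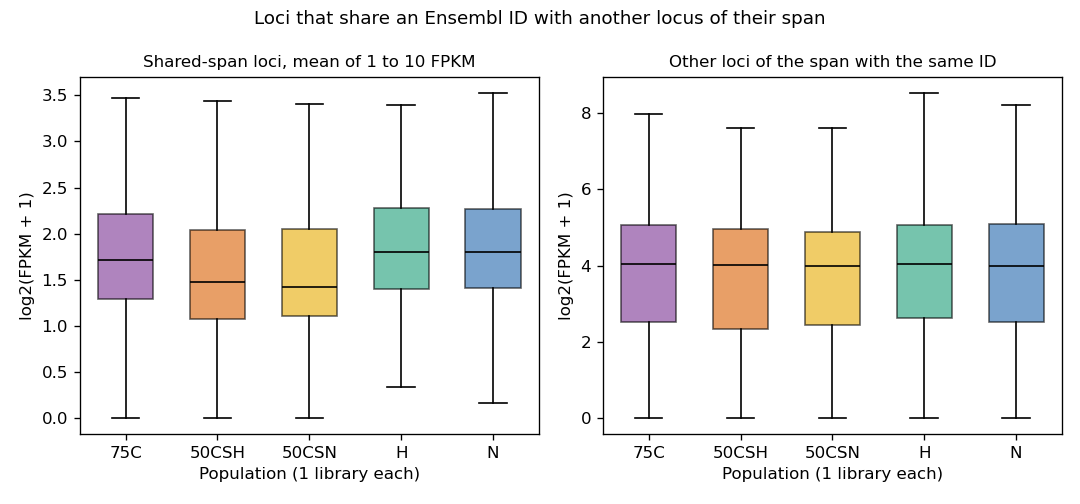
FPKM (log axis) in each library of the 274 small ID-sharing loci and of the other loci with the same ID in the span. Boxes give the quartiles and the median. The median of the small loci is 1.68 to 2.27 FPKM in the crossbreds, against 2.49 FPKM in H and N, while that of the partners stays between 14.8 and 15.5 FPKM.

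A few pairs were chosen after their values were seen. In all 3 the partner lay below both purebreds as well, by a smaller proportion, which was so for the partner in only 40 of the 106. ENSBTAT00000014779 on chromosome 7, from 5824716 to 5935450, had 4.78, 3.35 and 3.18 FPKM in 75C, 50CSH and 50CSN, against 7.92 and 8.36 FPKM in H and N, and the larger locus with its ID had 39.1, 34.0 and 36.4 FPKM against 47.0 and 45.2 FPKM. ENSBTAT00000016586 on chromosome 19, from 41825379 to 41860558, had 2.24, 0.902 and 1.16 FPKM in 75C, 50CSH and 50CSN, against 3.49 and 4.49 FPKM in H and N, beside a partner at 75.4 to 85.1 FPKM in the crossbreds and 96.9 to 110.5 FPKM in the purebreds. ENSBTAT00000044557 on chromosome 18, from 45302484 to 45315152, had 4.44, 3.85 and 3.71 FPKM in 75C, 50CSH and 50CSN, against 6.16 and 6.08 FPKM in H and N, beside a partner at 138, 131 and 146 FPKM in 75C, 50CSH and 50CSN, against 147 and 163 FPKM in H and N. The limma adjusted p of the 3 small loci was 0.11 to 0.14.

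Among shared-span loci above 0 in every library, the 6 lowest log2 differences without overlap were all below −1. The lowest was ENSBTAT00000027120 on chromosome 11, from 2564216 to 2571672, with 35.5, 8.42 and 9.63 FPKM in 75C, 50CSH and 50CSN, against 54.3 and 133 FPKM in H and N (log2 difference −2.48, standard error 0.69, limma adjusted p 0.15). Its partner with the same ID had 79.7, 103 and 137 FPKM in the crossbreds, against 124 and 173 FPKM in the purebreds. The pair thus differed in balance, with 50CSH and 50CSN farthest from N. ENSBTAT00000027862 on chromosome 13, from 53962239 to 54085408, had 10.9, 3.99 and 2.27 FPKM in 75C, 50CSH and 50CSN, against 16.2 and 14.1 FPKM in H and N. ENSBTAT00000000218 on chromosome 7, from 4839089 to 4877716, had 3.53, 1.77 and 1.94 FPKM, against 5.37 and 8.74 FPKM. In both, 75C lay between the 2 reciprocal crosses and the purebreds. The others were ENSBTAT00000016592 on chromosome 17, ENSBTAT00000011028 on chromosome 10 and ENSBTAT00000026100 on chromosome 23, all at 11.3 FPKM or less in every library.

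At the upper end, besides the abundant ENSBTAT00000006781, ENSBTAT00000021651 and ENSBTAT00000040741, stood 3 scarce loci. ENSBTAT00000027148 on chromosome 15, from 28237704 to 28295247, had 0.176, 2.84 and 21.9 FPKM in 75C, 50CSH and 50CSN, against 0.162 and 0.137 FPKM in H and N, so its difference rests on 50CSN and 50CSH. The other 4 loci of that span summed to at most 0.314 FPKM in any library. ENSBTAT00000056117 on chromosome 28, from 11434919 to 11510824, had 1.71, 1.79 and 2.18 FPKM in 75C, 50CSH and 50CSN, against 0.722 and 0.122 FPKM in H and N. ENSBTAT00000004876 on chromosome 22, from 12533517 to 12785339, had 2.31, 1.95 and 2.86 FPKM in 75C, 50CSH and 50CSN, against 0.715 and 0.601 FPKM in H and N. The other loci of its span summed to 118, 139 and 131 FPKM in the crossbreds, against 173 and 154 FPKM in the purebreds, the opposite direction. Most of that sum was ENSBTAT00000003797, with 81.6, 103 and 94.7 FPKM against 139 and 116 FPKM. The other locus with the ID ENSBTAT00000004876 had 18.1, 18.0 and 19.8 FPKM in 75C, 50CSH and 50CSN, against 16.4 and 18.8 FPKM in H and N, and overlapped.

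Values of 0 were compared between shared-span loci and loci alone in their span. An exact 0 in such tables can be a failed estimate as well as a lack of reads, so a locus is only said to be listed at 0. Among the 863, 46, 58 and 48 were listed at 0 in 75C, 50CSH and 50CSN, and 54 and 41 in H and N, which is 4.75 to 6.72 percent of them. Among the 1061 alone in their span, 6 to 14 were, or 0.566 to 1.32 percent. The share was higher in 5 of 5 libraries, by 4.63 percentage points on average. An exact sign-flip permutation test over 5 libraries cannot reach 0.05, so no p is given. Without the floor of 1 FPKM the difference turned to −10.5 percentage points, so it holds only among loci of some abundance. In all, 85 of the 863 (9.85 percent) were listed at 0 in at least 1 library, against 22 of the 1061 (2.07 percent).

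**Figure D4:**
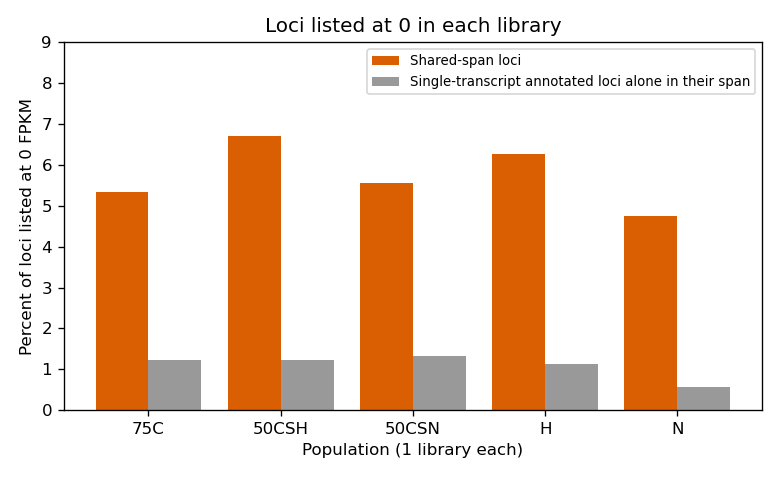
Percent of loci listed at 0 in each library, for shared-span loci and for annotated single-transcript loci alone in their span, both averaging 1 FPKM or more. The shared-span loci stand at 4.75 to 6.72 percent in every library, against 0.566 to 1.32 percent.

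Many of these loci were listed in a single library. Of the 85, 36 had a value in 1 library only, with levels there of 7.46 to 3865 FPKM and a median of 49.5 FPKM. These 36 passed the floor of 1 FPKM only through that library, so they had to be high there. Of the 85, 44 would have had a mean below 1 FPKM without their highest library, so the counts stand as a description. These single libraries were 75C for 9 loci, 50CSH for 3, 50CSN for 7, H for 5 and N for 12, so every population had some. In 32 of the 36 the other loci of the span stayed within 2-fold over the libraries. The number in the ID went with this behaviour. Of the 93 loci with an ID number from 59000, 65 were listed at 0 somewhere (69.9 percent), against 20 of the 770 others (2.60 percent). Among the loci alone in their span, 5 of the 14 with such a number were listed at 0 somewhere (35.7 percent), against 1.62 percent of the rest. Such numbers made up 10.8 percent of the shared-span loci and 1.32 percent of the loci alone, so the sets differed in this as well as in the sharing of a span, and the part of each was not tested.

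The highest single-library value was that of ENSBTAT00000060361 on chromosome 5, from 48015303 to 48065411, an ID carried by 2 shared-span loci. One had 3865 FPKM in N and was listed at 0 in the other 4 libraries. The other had 310.3, 550 and 753 FPKM in 75C, 50CSH and 50CSN, and 511 and 636 FPKM in H and N. Next to a locus present in all 5 libraries stood one with the same ID that N alone showed.

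ENSBTAT00000059637 on chromosome 3, from 108093498 to 108096089, was likewise listed only in N, at 2509 FPKM, where the other loci of its span had their lowest sum, 1395 FPKM, against 1747 FPKM in H and 2289 to 2683 FPKM in the crossbreds. ENSBTAT00000060410 on chromosome 19, from 39265919 to 39591013, had 3189 FPKM in 75C alone, beside others that summed to 60.3 to 77.0 FPKM. ENSBTAT00000042288 on chromosome 8, from 81409228 to 81422924, had 985 FPKM in 75C alone, beside a neighbour at 95.04 to 106 FPKM in all 5 libraries. The neighbours of these last 2 loci stayed level across the libraries.

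The remaining single-library loci among the 10 most abundant of this kind were ENSBTAT00000062280 on chromosome 8 (1755 FPKM in N), ENSBTAT00000059585 on chromosome 1 (1402 FPKM in 50CSN), ENSBTAT00000062109 on chromosome 5 (980.4 FPKM in N) and ENSBTAT00000062532 on chromosome 12 (970.1 FPKM in 50CSH). In each the other loci of the span summed to 7.81 to 18.4 FPKM in every library.

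Abundant loci on chromosome 23 were listed at 0 in fewer libraries. ENSBTAT00000013413, from 27808462 to 27884733, had 715, 1459 and 690.2 FPKM in 75C, 50CSH and 50CSN, and 3261 FPKM in H, and was listed at 0 in N. The other 3 loci of its span summed to 47.6, 36.1 and 69.0 FPKM in 75C, 50CSH and 50CSN, and to 52.7 and 78.9 FPKM in H and N. H had the highest value of the 4 libraries that showed the locus, and N, which did not show it, the highest sum of its neighbours.

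The span on chromosome 23 from 28472237 to 28685278 held 8 shared-span loci among its 15, and 4 of the 8 had a 0 in 1 or more libraries. ENSBTAT00000011795 had 1583 FPKM in 75C, 312 FPKM in 50CSN, 1057 FPKM in H and 1739 FPKM in N, and was listed at 0 in 50CSH. A second locus with the ID ENSBTAT00000024888 had 292 FPKM in 50CSN and 243 FPKM in N and was listed at 0 in 75C, 50CSH and H. The whole span summed to 7923, 7554 and 9542 FPKM in 75C, 50CSH and 50CSN, and to 10977 and 8814 FPKM in H and N. The sum therefore varied by less than 2-fold while single loci in it were listed at 0.

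By median, shared-span loci varied more between libraries than the stretch they lay in, and by how much differed between their kinds. The median difference between the highest and the lowest library was 0.61 for the locus on the log2(FPKM + 1) scale, 0.42 for the other loci of its span summed and 0.48 for the whole span. It was 0.53 for loci alone in their span, which had a higher median level (21.1 against 7.70 FPKM), and 0.48 for all 13871 loci. By kind, it was 0.47 for own-ID loci numbered below 59000, 0.66 for ID-sharing loci and 5.17 for own-ID loci numbered from 59000. The largest kind thus varied less than the loci alone. A range of 2-fold or more was seen in 229 of the 863 (26.5 percent), against 15.5 percent of the loci alone in their span and 14.4 percent of all 13871 loci. In 127 of the 229 the whole span stayed within 2-fold, and in 102 it did not. The locus varied more than its span in 582 of the 863. A locus is part of its own span sum, so the ranges are not independent.

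**Figure D5:**
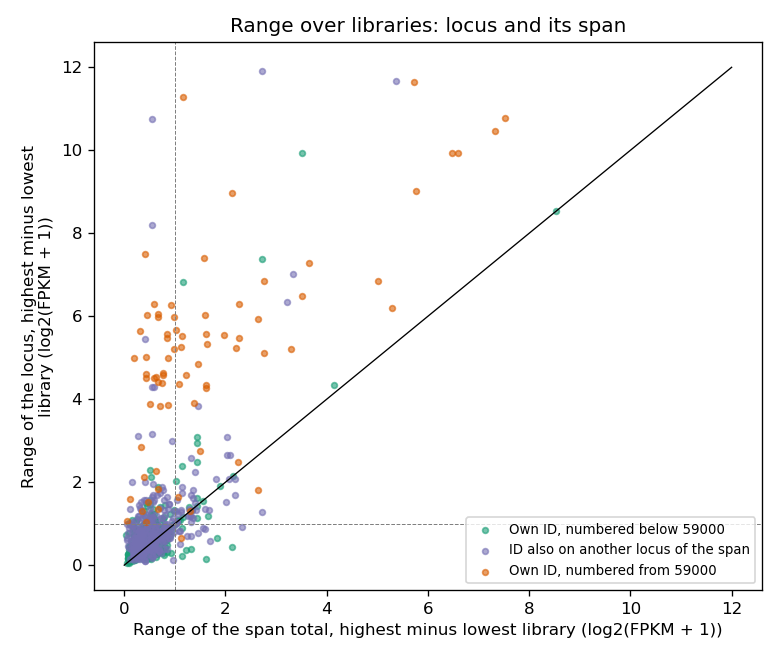
Range over the 5 libraries of each shared-span locus (vertical axis) and of its whole span (horizontal axis), both as highest minus lowest log2(FPKM + 1). Points above the diagonal, 582 of 863, are loci that varied more than their span, and points far above it combine a wide range of the locus with a narrow one of the span.

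Of the 165 loci above both purebreds in all crossbreds, the other loci of the span summed lay above as well in 48, below in 22 and overlapped in 95. Of the 188 below, the others lay below in 76, above in 21 and overlapped in 91. The others thus lay on the same side in 29.1 percent of the loci above and 40.4 percent of those below, and on the opposite side in 13.3 and 11.2 percent. Over all 863 the others lay above in 20.7 percent and below in 22.2 percent. The locus held a median of 22.9, 18.7 and 20.2 percent of its span's FPKM in 75C, 50CSH and 50CSN, and of 20.7 and 20.9 percent in H and N.

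Between the purebreds, H exceeded N by 2-fold or more, on the log2(FPKM + 1) scale, in 26 loci and fell short of it as far in 43. These are 3.01 and 4.98 percent of the 863, against 1.46 percent and 1.86 percent of all loci. Many of them rest on a 0: 15 of the 26 and 28 of the 43 were listed at 0 in N or H. Among the 778 loci above 0 in all libraries, 8 and 13 remained. By kind, 14 of the 26 and 23 of the 43 were among the 74 own-ID loci numbered from 59000. Only 3 and 6 were among the 435 own-ID loci numbered below 59000. Loci with a value in H alone (5) or N alone (12) passed the floor through that library, so they had to differ here. The other loci of the span stayed within 2-fold in 25 of the 26 and 41 of the 43. Over all 863 the others had a median range of 0.42 across the 5 libraries, so staying within 2-fold was their usual state. There is 1 library of each, so none of these differences has a test.

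Among loci above 0 in all libraries, the highest in H over N was ENSBTAT00000010617 on chromosome 5, from 81256868 to 81266335, with 4.98 FPKM in H against 0.280 FPKM in N, and with 0.709, 7.001 and 1.43 FPKM in 75C, 50CSH and 50CSN. ENSBTAT00000025617 on chromosome 23, from 48378015 to 48405757, had 5.83 FPKM in H against 1.27 FPKM in N, and the crossbreds had 4.01, 7.82 and 4.16 FPKM. In both, 50CSH was above H. The most abundant of the 6 highest was ENSBTAT00000034009 on chromosome 3, from 17730438 to 17832463, with 65.9 FPKM in H against 27.6 FPKM in N, and with 42.6, 39.6 and 52.6 FPKM in 75C, 50CSH and 50CSN. Its crossbred values all lay between those of H and N.

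The lowest in H against N was ENSBTAT00000054099 on chromosome 9, in a span of 8 loci from 40676200 to 40949439, with 0.161 FPKM in H against 74.8 FPKM in N, and with 21.9, 151 and 56.5 FPKM in 75C, 50CSH and 50CSN. The other 7 loci of the span summed to 15.9 to 23.7 FPKM in every library, so its neighbours stayed level. ENSBTAT00000016454 on chromosome 1, from 95135329 to 95991862, had 3.89 FPKM in H against 12.6 FPKM in N, and 6.13, 11.1 and 20.7 FPKM in 75C, 50CSH and 50CSN, in a span whose other locus was at 0. ENSBTAT00000034472 on chromosome 23, from 28965906 to 28998467, is the ID of 2 loci, and the larger had 37.6 FPKM in H against 95.8 FPKM in N, and 57.5, 22.0 and 39.7 FPKM in 75C, 50CSH and 50CSN. The smaller had 6.15 FPKM in H against 11.5 FPKM in N, and 7.14, 2.85 and 9.48 FPKM in 75C, 50CSH and 50CSN. In both loci 50CSH was the lowest library and N the highest. The others of the 6 lowest were ENSBTAT00000060154, ENSBTAT00000002088 and ENSBTAT00000007799, each at 1.17 to 1.79 FPKM in H, with N at 4.80 to 9.06 FPKM.

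Between the reciprocal crosses, which have equal breed shares and differ in the breed of sire and dam, 50CSH exceeded 50CSN by 2-fold or more in 24 loci and fell short of it as far in 34. These are 2.78 and 3.94 percent of the 863, against 1.25 percent and 1.56 percent of all loci. A 0 in 1 of the 2 crosses stood behind 13 of the 24 and 22 of the 34. Among the 778 loci above 0 in all libraries, 10 and 9 remained. By kind, 15 of the 24 and 14 of the 34 were own-ID loci numbered from 59000, and 2 and 6 own-ID loci numbered below 59000. Loci with a value in 50CSH alone (3) or 50CSN alone (7) had to differ here, for the same reason as above. The other loci of the span stayed within 2-fold in all 24 and in 33 of the 34, again their usual state.

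The highest in 50CSH over 50CSN, with values above 0 throughout, was ENSBTAT00000045033 on chromosome 23, from 31711586 to 31714398, with 5.26 FPKM in 50CSH against 0.861 FPKM in 50CSN. It had 1.21 FPKM in 75C, 1.78 FPKM in H and 3.68 FPKM in N. ENSBTAT00000010617 came next, and ENSBTAT00000003739 on chromosome 19, from 53173138 to 53507046, followed with 2.37 FPKM in 50CSH against 0.135 FPKM in 50CSN. ENSBTAT00000031673 on chromosome 4, from 109364766 to 109518397 in a span of 27 loci, had 16.0 FPKM in 50CSH against 5.80 FPKM in 50CSN. ENSBTAT00000031673 was also high in 75C, at 12.5 FPKM, and had 3.58 FPKM in H and 6.64 FPKM in N.

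In the other direction, ENSBTAT00000027148 on chromosome 15 had 2.84 FPKM in 50CSH against 21.9 FPKM in 50CSN. ENSBTAT00000053293 on chromosome 17, from 61143700 to 61262700, had 7.11 FPKM in 50CSH against 25.9 FPKM in 50CSN, and 10.7, 15.4 and 12.2 FPKM in 75C, H and N. ENSBTAT00000052208 on chromosome 4, from 85775848 to 85884309, had 5.95 FPKM in 50CSH against 14.2 FPKM in 50CSN. For each of these 3, 50CSN was the highest of the 5 libraries.

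The authors' own tests called few transcripts, among these loci as among all. In the authors' deposited table of pooled crossbreds against pooled purebreds, 10 of the 831 shared-span loci they tested were called. Of all 37091 transcripts tested, 347 were (0.936 percent), so the share of the shared-span loci was near that of all. The authors' deposited table called 9 of them higher and 1 lower. ENSBTAT00000006781, ENSBTAT00000021651, ENSBTAT00000018491, ENSBTAT00000004190, ENSBTAT00000020323, ENSBTAT00000032643, ENSBTAT00000040741 and ENSBTAT00000005580, on chromosome 21, were higher there, as was ENSBTAT00000004161 on chromosome 11. In the libraries themselves ENSBTAT00000004161 had 57.5, 65.4 and 65.6 FPKM in 75C, 50CSH and 50CSN, against 39.0 and 30.1 FPKM in H and N. The lower one, ENSBTAT00000003997 on chromosome 19, had a log2 fold change of −1.33 in the authors' deposited table, and 1.89, 0.914 and 1.17 FPKM in 75C, 50CSH and 50CSN, against 3.05 and 3.63 FPKM in H and N.

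In the authors' deposited tables of single populations, 4 loci were called, with 8 calls in 5 of the 10 comparisons, each with q 0.043. In each of these 5, 1 or 2 of the 822 to 839 shared-span loci tested were called. These tables share libraries. ENSBTAT00000006781 was called higher in 50CSH and in 50CSN than in H, and in 50CSN than in N, in the authors' deposited tables. ENSBTAT00000021651 was called higher in 50CSN than in H, ENSBTAT00000027120 lower in 75C, 50CSH and 50CSN than in N, and ENSBTAT00000034472 lower in 50CSH than in N, again in the authors' deposited tables. Over all transcripts tested, 0.183 percent were called for 75C against N, 0.151 percent for 50CSH against N, 0.144 percent for 50CSN against N, 0.176 percent for 50CSH against H and 0.157 percent for 50CSN against H. None of the shared-span loci was called for H against N, where 0.0796 percent of all transcripts were, or for 50CSH against 50CSN, where 0.0477 percent were. None was called either for 75C against H (0.0758 percent of all transcripts), 50CSH against 75C (0.0574 percent) or 50CSN against 75C (0.0849 percent). With shares this low, the absence of a call among the 823 to 834 shared-span loci tested does not set them apart.

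Chromosome 19 had the most shared-span loci, 65, followed by chromosome 3 with 59 and chromosome 7 with 58. Chromosome 23 had 48, which were 10.7 percent of the loci it kept. The span with the most was on chromosome 23 from 31718068 to 31995131, with 9 among 40 loci. A span of 31 loci on chromosome 17, from 75476590 to 76055199, held 6, of which 4 lay below both purebreds in all crossbreds, against 22.3 percent of all loci. It was picked after the values were seen, and the next span, on chromosome 19 from 8734352 to 8883076 with 5 shared-span loci, had 1 below, while the 2 spans with more had 0 and 2 below. Its sum was 427, 336 and 347 FPKM in 75C, 50CSH and 50CSN, against 468 and 511 FPKM in H and N, so the sum lay below as well.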

How the data were processed

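Whole-transcriptome libraries of blood leukocytes, 1 per population, had been assembled and quantified by the authors. The submitters' processing notes name TopHat2 2.0.9 and Cufflinks 2.2.1. Neither labels nor headers name the genome build. The authors deposited, per transcript and pair of libraries, FPKM values, a p-value, a q-value and a call, and p-values, calls and a log2 fold change for pooled crossbreds against pooled purebreds. FPKM were divided by the authors between overlapping transcripts, and they carry no read counts.

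From there, FPKM were summed per gene_id. Spans were printed with 1 added to the start, which was taken as counted from 0. Sums over the other loci of a span and over the whole span were taken from all gene_ids with that span. All 13871 loci averaging 1 FPKM or more entered a limma fit (version 3.58.1, R 4.3.3) of log2(FPKM + 1), trend option on, of the 3 crossbred libraries against the 2 purebred ones and Benjamini-Hochberg adjustment over all of them. The fit was tested on simulated data with normal noise and without values fixed at 0, so that test does not cover loci listed at 0. Comparisons of single populations are counts of 2-fold differences without a test. Named loci are the 10 highest, the 6 highest and 6 lowest of each comparison (above 0 in all libraries, and without overlap for crossbred against purebred), the 10 highest among those listed at 0 somewhere, the 10 that varied most beyond their span, and all called loci. Loci at the threshold, 3 ID-sharing pairs picked by their values and neighbours in the same spans are named besides. The loci, lists and rules were chosen with earlier results of these data known. Alternatives were pseudocounts, floors, scalings and leaving out each library.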

Additional observations from a re-analysis of the deposited data

How the results depend on the processing

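No paired analysis was possible because each population has 1 library. The number of shared-span loci past the limma threshold, 2, became 1 with a pseudocount of 0.1, 1 with a floor of 5 FPKM, 0 without a floor (220 at unadjusted p below 0.05) and 0 among loci above 0 in all libraries (204). It ranged from 1 to 15 without single libraries, 15 without H, when the lone purebred is assumed to vary like the other libraries. ENSBTAT00000060235 lost its call without a floor (limma adjusted p 0.064), and ENSBTAT00000049221 also with a pseudocount of 0.1 (limma adjusted p 0.11).

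The count below both purebreds, 188, was 292 without a floor, 68 with a floor of 5 FPKM and 212 to 317 without single libraries. For H against N, the 26 higher loci became 41 with a pseudocount of 0.1, 15 with a floor of 5 FPKM and 8 among loci above 0 in all libraries, where the 43 lower became 13. For 50CSH against 50CSN, the 24 higher became 10 and the 34 lower 9 among loci above 0 in all libraries, and the lower 20 with a floor of 5 FPKM. The difference in the share listed at 0 turned to −10.5 points without a floor. Loci that varied 2-fold in a span that did not numbered 127, and 201 with a pseudocount of 0.1 and 54 with a floor of 5 FPKM. The median share of the span, 20.5 percent, was 48.0 percent with that floor and 24.3 percent among loci above 0 in all libraries.

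The log2 difference of ENSBTAT00000026183 turned to −0.051 after quantile normalisation. That of the highest ENSBTAT00000024888 locus ranged from −0.61 to 0.26 without single libraries and was above 0 without 75C (0.02) and without H (0.26). The causes were not tested. FPKM carry no read counts, so counting error is unknown at every level.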

Other observations

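Some loci were close to 0 in 50CSH without being listed at 0. ENSBTAT00000011028 on chromosome 10, from 14922213 to 14939095, had 2.92, 0.000300 and 0.417 FPKM in 75C, 50CSH and 50CSN, against 2.97 and 2.996 FPKM in H and N, while the other locus of the span had 20.8 to 24.2 FPKM in every library. The smaller locus with the ID ENSBTAT00000038869 on chromosome 4, from 109624151 to 109825320, had 5.05, 0.00661 and 1.43 FPKM in 75C, 50CSH and 50CSN, against 0.519 and 0.543 FPKM in H and N.

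Among the loci that varied most beyond their span were 2 with intermediate patterns. ENSBTAT00000059474 on chromosome 11, from 108061858 to 108065538, had 50.8 FPKM in 75C, 25.4 FPKM in 50CSN, 179 FPKM in H and 35.6 FPKM in N and was listed at 0 in 50CSH. ENSBTAT00000059705 on chromosome 21, from 68155138 to 68164586, had 43.3 FPKM in 50CSH and 167 FPKM in N and was listed at 0 in the other 3, while its neighbour had 83.1 to 90.1 FPKM throughout. ENSBTAT00000061853 on chromosome 10 had 504 FPKM in N alone, beside 138.8 to 166.3 FPKM for the other 9 loci of its span.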
